A study of Mus musculus with 24 samples.

Results

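Liver H3K27ac peaks were described around 10 genes of iron homeostasis: Hamp, Hamp2, Tfr2, Hfe, Hfe2, Bmp6, Slc40a1, Fth1, Ftl1 and Tmprss6. Peaks were taken where they overlapped the gene body or the 10 kb on each side of it, on the mm9 assembly. The genes are 10 of 22350 protein-coding genes on the autosomes and X. Their windows held 57 of 79818 peaks called for B6 males, 63 of 82176 for B6 females, 62 of 90228 for CAST males and 59 of 84645 for CAST females. Merged across lists wherever they overlapped, these peaks formed 77 of 119348 regions. H3K27ac is a histone acetylation that marks promoters and enhancers in use. Livers came from mice of both sexes of an inbred laboratory strain, C57BL/6J (B6), and an inbred strain of another subspecies, CAST/EiJ (CAST), all 8 weeks old and carrying no transgene or treatment in the labels, and the study asked how far sex differences in regulatory elements are shared by the strains. There were 20 livers in 4 groups of 5 and 4 input controls. Groups follow the sample titles; a strain field of the labels contradicts the titles in 2 of the 4 liver groups.

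Each list is deposited as the merged list of its group of 5 livers, so no value has a spread between animals and nothing was tested. Differences are given beside the same difference over all regions or genes. Where an interval is printed, it is the exact 95% Poisson interval of the coverage at a peak's summit, which covers counting error only. In whole liver, a lower signal in every cell and a mark carried by fewer cells cannot be told apart. Of 8 hepatocyte marker genes, 7 had a promoter peak in every list, the exception being Serpina1a, which belongs to a family of near-identical copies. Of 6 genes of other organs, none had a promoter peak in any list. Of 6 Kupffer cell markers, 1 had a promoter peak in the B6 female list (Clec4f) and none had in the other lists, whereas 6 of 7 sinusoidal endothelial markers, 1 of 5 stellate cell markers (Reln) and 2 of 4 cholangiocyte markers had a promoter peak in each list. The background coverage of the lists ran from 16.9 to 18.7.

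Systemic iron is controlled by hepcidin, a peptide hormone that hepatocytes secrete and Hamp encodes. Hepcidin binds ferroportin, the product of Slc40a1 and the exporter through which cells release iron, and has it degraded. Hepatocytes set hepcidin through BMP signalling: BMP6, made mainly by sinusoidal endothelial cells, acts on receptors together with the co-receptor hemojuvelin (Hfe2), while HFE and transferrin receptor 2 (Tfr2) sense transferrin-bound iron and the protease matriptase-2 (Tmprss6) dampens the pathway. Inflammation raises hepcidin through STAT3. Ferritin, built of heavy (Fth1) and light (Ftl1) chains, stores iron inside cells. The mouse carries a second hepcidin gene, Hamp2, close to the first.

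The sequences that set the hepcidin genes apart are shown first. Hamp (ENSMUSG00000050440.7) lies at chr7:31727390-31729036 on the minus strand, and Hamp2 (ENSMUSG00000056978.6) at chr7:31707391-31709200 on the same strand. The 250 bases before each annotated start were read 5′ to 3′ in the direction of the gene from mm9, chr7:31729037-31729286 for Hamp and chr7:31709201-31709450 for Hamp2. Capitals mark matches to the letters GGCGCC (core of a BMP response element), TTCNNNGAA (STAT), CACGTG (E-box), TGTTTAC (FOXA), TGACNNNGC (core of an antioxidant response element) or TATAAA, the TATA box, on either strand.
Hamp, bases before the start: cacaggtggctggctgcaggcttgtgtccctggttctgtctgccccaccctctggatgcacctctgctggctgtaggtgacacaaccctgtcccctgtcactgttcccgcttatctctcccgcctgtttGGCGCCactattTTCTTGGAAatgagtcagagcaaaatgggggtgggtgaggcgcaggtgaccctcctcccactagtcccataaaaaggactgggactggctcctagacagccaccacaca
Hamp2, bases before the start: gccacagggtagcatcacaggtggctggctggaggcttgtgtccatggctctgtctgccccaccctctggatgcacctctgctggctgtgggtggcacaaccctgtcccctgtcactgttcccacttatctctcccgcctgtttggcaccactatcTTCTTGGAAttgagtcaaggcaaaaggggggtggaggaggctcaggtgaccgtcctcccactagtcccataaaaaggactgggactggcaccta

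The stretches were 82.3% identical over an alignment of 265 positions, and the gene bodies 87.1% identical. The alignment counts unpaired bases as mismatches. The Hamp2 stretch begins and the Hamp stretch ends with such bases, since the annotated starts do not align, so 82.3% understates the identity of the paired bases. Both kept the STAT letters without a substitution, from 109 to 101 bp before the start in Hamp and from 94 to 86 bp in Hamp2. These letters align with each other, and their distances differ through the same offset of the starts. The BMP response element core of Hamp, from 121 to 116 bp before the start, carried the substitution G4A in Hamp2, counted from 1 at the first base of the match. In the window of 300 bases around the start (250 before and 50 after), GGCGCC was found in Hamp and in no other of the 10 genes, against 14.3% of 22350 promoters. The STAT letters were found in 3 of the 10 genes (Hamp, Hamp2 and Hfe2) and in 7.94% of promoters. FOXA letters stood in the Tmprss6 window (3.11% of promoters), antioxidant response letters in that of Hfe (12.5%), TATA letters in those of Hfe2 and Ftl1 (13.4%), and E-box letters in none of the 10 (7.79%). These matches describe the B6 reference sequence and are not binding sites.

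The second stretch shown is the element just upstream of Hamp that carries the largest difference in signal near any of the 10 genes (values below). It is the part that the peaks of all 4 lists share, from 571 to 320 bp before the start at chr7:31729356-31729607, written in the direction of Hamp.
Hamp, upstream element: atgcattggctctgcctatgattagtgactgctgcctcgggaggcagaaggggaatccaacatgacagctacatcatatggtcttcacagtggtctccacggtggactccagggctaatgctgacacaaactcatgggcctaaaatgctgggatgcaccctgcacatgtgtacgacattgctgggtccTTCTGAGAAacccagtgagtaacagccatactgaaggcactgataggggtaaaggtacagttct

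This element held 1 match, to the STAT letters, from 383 to 375 bp before the start. Among the 22350 protein-coding genes, 7.95% hold a STAT match in the same 252 bases upstream.

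Around the 10 genes, H3K27ac was widespread, and most of it was common to the lists. Of the 77 regions, 42 (54.5%) were called in all 4 lists, against 42.1% of the 90134 regions near protein-coding genes. The regions called in every list were wide, with a median of 1200 bp, and 19 regions called in a single list were narrow, with a median of 325 bp and at most 586 bp. A peak lay within 2.5 kb of the gene's own start in all 4 lists at 9 of the 10 genes, the exception being Hamp2, whereas 57.6% of all protein-coding genes had such a peak in every list.

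Covered bases were counted next, promoter and distal apart. Peaks in the windows covered 49288 bp for B6 males, 51034 bp for B6 females, 54860 bp for CAST males and 47743 bp for CAST females. Peaks within 2.5 kb of a transcript start made up 25870, 27040, 27294 and 26338 bp in the same order, a narrow range. Distal peaks, farther than 2.5 kb from any start, made up 23418, 23994, 27566 and 21405 bp. In sum over the genes the lists thus resembled each other at promoters, and the CAST male list held 1.29 times the distal bases of the CAST female list, while the B6 lists differed by 0.976 times. Single genes differed more. Bases in peaks near the own start were 1.5-fold apart between the sexes at 1 of 9 genes in B6, against 7.86% of all genes, and at 1 of 9 in CAST, against 8.87%: 570 bp in males and 1087 bp in females at Bmp6 in B6, a ratio of 0.524, and 2179 and 1405 bp at Hamp in CAST, a ratio of 1.55. Over all their peaks, the male lists covered 1.05 times (B6) and 1.12 times (CAST) the bases of the female lists. Peaks in the windows of the 7 endothelial markers also covered more bases in males, 46000 against 39543 bp in B6 and 51111 against 41347 bp in CAST, as did those of the 8 hepatocyte markers, 57728 against 51248 bp and 60454 against 53861 bp. Those of the stellate cell markers covered fewer in B6 males, 4206 against 5382 bp, and more in CAST males, 3754 against 3387 bp, and those of the cholangiocyte markers more in males, 4352 against 2840 bp and 4373 against 3638 bp. Those of the Kupffer cell markers covered fewer in males of both strains, 0 against 1057 bp in B6 and 217 against 525 bp in CAST. Those of the genes of other organs covered more, 3718 against 2530 bp and 3790 against 3268 bp. The iron genes covered 0.966 times as many bases in males in B6 and 1.15 times in CAST. The part of cell makeup in the covered bases of the iron genes was not tested.

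No gene with peaks in both sexes differed in covered bases by the fold used here, 1.5. In B6 the male to female ratio of covered bases ran from 0.807 (Hfe) to 1.31 (Slc40a1) with a median of 0.931 over 9 genes, and 0 of 9 were 1.5-fold apart, against 9.42% of all genes with peaks in both B6 lists. In CAST the ratio ran from 0.960 (Hfe) to 1.40 (Hamp) with a median of 1.16, above 1 at 8 of the 9 genes, and again 0 of 9 were 1.5-fold apart, against 11.1%. The median over all genes was 1.03 in B6 and 1.08 in CAST. The Hamp ratio in CAST is the value closest to the fold. With peaks counted in full, it passed the fold at 2.70 for those touching the gene body and at 1.56 with a window of 5 kb. With a stricter peak threshold it stood at 1.54. The value of 2.70 is not a ratio of bases inside the gene body. It includes a CAST male peak of 1059 bp that lies mostly past the 3′ end, and leaves out the CAST female peak of 221 bp there. In the same way the B6 ratio of Fth1, 0.908, turned to 1.74 for peaks touching the gene body. The B6 male start peak of 2070 bp was counted whole, and a separate upstream B6 female peak of 743 bp was left out.

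**Figure D1:**
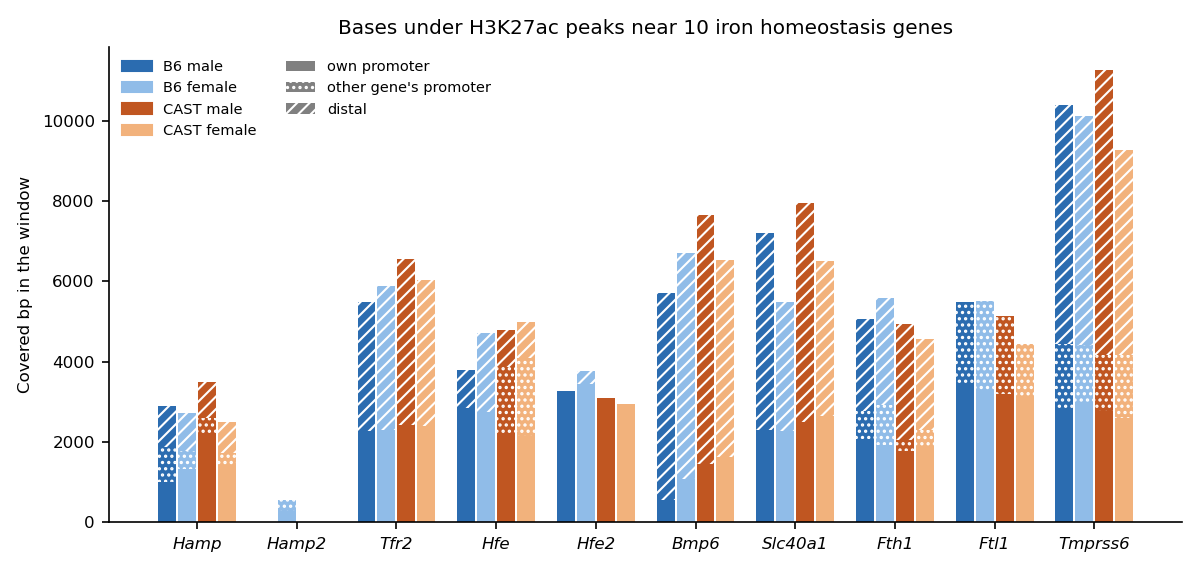
Bases covered by H3K27ac peaks (y axis, bp) in the window of each gene (x axis), with 1 bar per merged list, split into peaks near the gene's own start (plain), near another gene's start (dotted) and distal (hatched). The bars run from 2493 to 3499 bp at Hamp, from 5492 to 7953 bp at Slc40a1 and from 9267 to 11266 bp at Tmprss6, and at Hamp2 the B6 female list alone has a bar (555 bp).

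Calls present in 1 sex only were counted beside their share near all genes. In B6, 5 of 63 called regions were male-only (7.94%) and 10 were female-only (15.9%), against 17% and 17% near all genes. In CAST, 9 of 62 were male-only (14.5%) and 3 were female-only (4.84%), against 20.9% and 13.6%. The B6 female share lay near the background and the other 3 below it, and the counts rose to 12, 17, 16 and 10 where sharing needed an overlap of 50% of both peaks, a rule not applied to all genes. Of the 17 regions near the genes' own starts that were called in B6, 0 were male-only and 1 was female-only, at Hamp2. In CAST, 0 of 17 were male-only and 1 was female-only, a narrow region inside Bmp6. Of regions as near to a start of any protein-coding gene, the B6 lists had 8.43% in males alone and 8.98% in females alone, and the CAST lists 10.8% and 6.84%, and 17 regions are too few to set 0 or 1 apart from these shares. Peaks of a list were ranked from 0 to 100 by the q-value, and the 27 single-sex calls had a median percentile of 16.8 in the list that made them, close to 17.2 over all single-sex calls near genes, with a highest of 56.8 at an exon of Slc40a1 called in CAST males and in both B6 lists.

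Strain-only calls were about as frequent as elsewhere. Of 48 regions called in both sexes of B6, 4 (8.33%) had no call in CAST, against 7.49% near all genes. Of 50 called in both sexes of CAST, 6 (12%) had no call in B6, against 10.9%. The count of B6-only regions fell to 0 when peaks up to 500 bp apart were merged. The B6-only regions lay at Hfe, Bmp6, Ftl1 and Tmprss6, and the CAST-only regions at Hamp, Tfr2, Hfe (2 regions), Slc40a1 and Fth1.

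Signal was compared by fold enrichment, the coverage at a peak's summit over the local background. Among regions called in both sexes, 2 of 48 were 1.5-fold apart between the B6 sexes, both higher in females and both at Hamp, against 1.05% near all genes. In CAST 0 of 50 were, against 1.54%. Between the strains, 2 of 46 regions differed by 1.5-fold in males, against 3.24%, and 1 of 43 in females, against 3.74%, all higher in CAST, at Hamp and at the 3′ side of Tfr2. The region over the 3′ end of Hamp stood just inside the fold in females, at a CAST to B6 ratio of 0.673, and passed it, higher in B6, at 0.665 with fold enrichment scaled by the list median. By summit coverage over the background of the list, more regions passed the fold, near all genes too. Between the sexes these were 2 of 48 in B6, the same Hamp regions, against 3.87%, and 3 of 50 in CAST, against 6.15%, all higher in males, at Tmprss6 (1.66), Hamp (1.52) and Bmp6 (1.52). Between the strains they were 3 of 46 in males, against 9.16%, all higher in CAST, with the Bmp6 start region (1.73) added to those at Hamp and Tfr2. In females they were 4 of 43, against 11.8%, 2 higher in CAST, at Tfr2 (1.74) and downstream of Slc40a1 (1.57), and 2 higher in B6, both at Hamp (0.646 and 0.623). The median log2 ratio of the members was -0.03 for B6 males over females and 0.04 for CAST males over females, beside -0.01 and 0.07 over all regions.

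**Figure D2:**
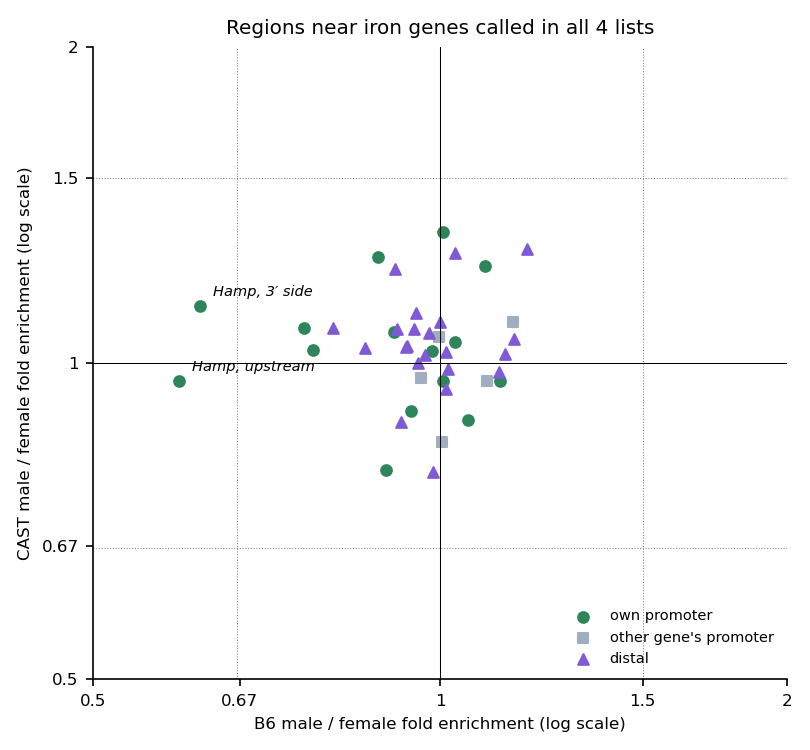
Male over female fold enrichment in B6 (x axis, log scale) and in CAST (y axis, log scale) for the 42 regions called in all 4 lists, by promoter or distal position, with dotted lines at 1.5-fold. Both regions past the dotted line lie at Hamp, with B6 ratios of 0.594 and 0.619, and the rest gather around 1.

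Across the 42 regions called in every list, the direction of the small differences depended on the measure. Fold enrichment was higher in males of both strains in 10 regions and higher in females of both strains in 7. In 17 regions it was higher in B6 females and CAST males, and in 8 in B6 males and CAST females. By summit coverage over the background of the list, 27 of the 42 were higher in males of both strains, 2 in females of both, 11 in B6 females and CAST males and 2 in B6 males and CAST females. Over all regions near genes that measure also lay above 1, with a median male to female ratio of 1.03 in B6 and 1.13 in CAST.

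Hamp carried 7 regions, 6 of them called in all lists. None spanned the start itself. The element at chr7:31729305-31729657, between Hamp and the neighbouring gene Usf2 and from 621 to 269 bp before the Hamp start, had a fold enrichment of 2.63 in males and 4.43 in females of B6, and 5.30 in males and 5.52 in females of CAST. The B6 male list thus stood apart from the other 3. Its summit coverage was 66 (51.0 to 84.0), against 111 (91.3 to 133.7) for the females of B6, 135 (113.2 to 159.8) for CAST males and 113 (93.1 to 135.9) for CAST females, and its interval does not meet those of the other lists. The male to female ratio of fold enrichment was 0.594 in B6 and 0.961 in CAST, and the CAST to B6 ratio was 2.02 in males and 1.25 in females. In its list the element ranked at percentile 46.4, 78.5, 83.2 and 83.9 in the same order, which makes it the highest ranked Hamp peak in the B6 female and both CAST lists. Whether the B6 difference would hold between single livers was not tested.

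The region over the 3′ end of Hamp, from 1447 to 2586 bp after the start (chr7:31726450-31727589), was also higher in B6 females. Its fold enrichment was 2.22 in males and 3.59 in females of B6, and 2.73 in males and 2.41 in females of CAST. Summit coverage was 42 (30.3 to 56.8), 72 (56.3 to 90.7), 52 (38.8 to 68.2) and 42 (30.3 to 56.8), so that the intervals of the B6 lists just meet. The B6 female list covered 755 bp there and the B6 male list 367 bp, while the CAST male list covered 1059 bp and the CAST female list 221 bp.

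Another region, inside an intron of Hamp from 194 to 745 bp after the start (chr7:31728291-31728842), was called in both CAST lists and in neither B6 list. Its fold enrichment was 2.42 in CAST males and 3.03 in CAST females, at percentiles 31.1 and 48.8. The remaining regions lay over Usf2 and were called in every list. The most enriched of them, from 2407 to 1859 bp before the Hamp start, had fold enrichments of 3.03, 3.43, 3.04 and 2.40 in the order B6 male, B6 female, CAST male and CAST female.

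Hamp2 was all but bare of the mark. No peak was called in its window in the B6 male, CAST male or CAST female list. The B6 female list held 2 narrow peaks. The first, of 281 bp in an intron, had a fold enrichment of 2.69 and a summit coverage of 52 (38.8 to 68.2), and the other, of 274 bp, lay near the start of another gene, with a fold enrichment of 2.13. The Hamp2 gene carries the STAT letters shown above but not the BMP response element letters, and whether this bears on the mark was not tested.

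Only uniquely mapped reads were kept by the authors, so the near-identical copies matter at these loci. Of the words of 50 bases in the Hamp window, 64.1% occur once in mm9, and of those in the Hamp2 window 55.3%, against 94.3% to 99.1% in the windows of the other 8 genes. Within the peaks the share was higher. It was 97.0% in the upstream element of Hamp, 83.1% in the region over its 3′ end, 83.3% in the CAST-only intron region, 69.2% in the region from 2407 to 1859 bp upstream and 98.3% in the Hamp2 intron peak. Over the Hamp2 gene body, 77.7% of words were unique. The same count was not made on the CAST genome, and the part of mapping in the low number of calls at Hamp2 and in the strain differences at Hamp was not tested.

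**Figure D3:**
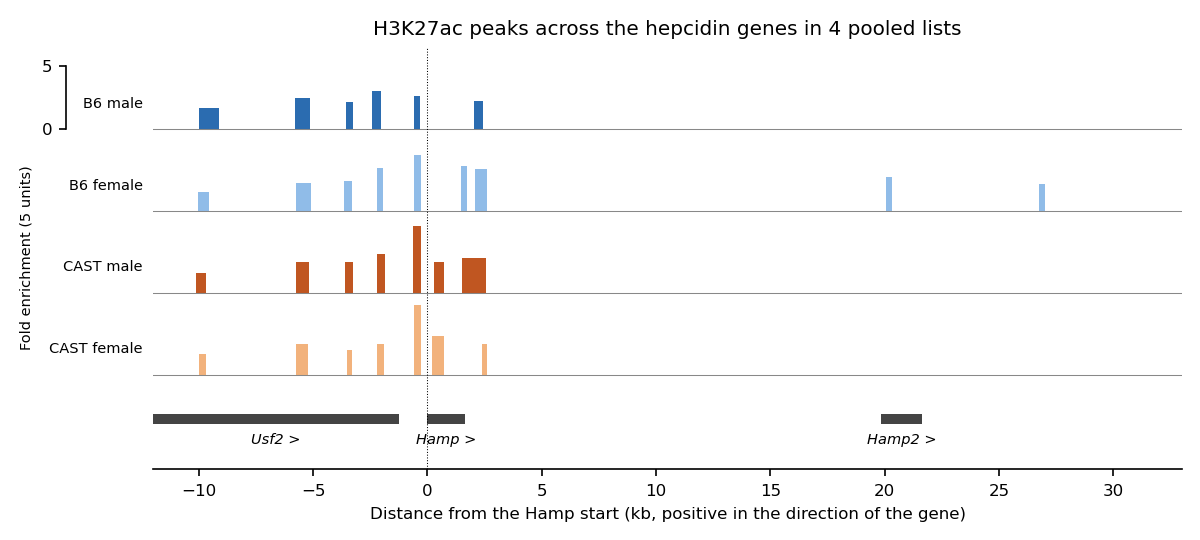
Peaks of the 4 merged lists from Usf2 across Hamp to Hamp2 (x axis, kb from the Hamp start in the direction of the gene), each bar as wide as the peak and as high as its fold enrichment. The bar just before the Hamp start is lowest in the B6 male list (2.63) and highest in the CAST lists (5.30 and 5.52), the bar inside Hamp is present in CAST only, and Hamp2 has bars in the B6 female list only.

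Tmprss6, whose product cleaves hemojuvelin and so restrains hepcidin, had the most covered bases of the 10 genes. The gene (ENSMUSG00000016942.4) lies at chr15:78270098-78299064. Peaks flanked its start without spanning it, and the region from 164 to 1411 bp after the start had a fold enrichment of 2.76 in males and 2.74 in females of B6, and 2.74 in males and 2.06 in females of CAST. Its summit coverage in CAST females, 194 (167.7 to 223.3), lay below 339 (303.9 to 377.1) in CAST males and below both B6 lists. On the other flank, the region nearest the start, from 438 to 77 bp before it, stood at 2.17, 2.80, 2.46 and 2.39, with a male to female ratio of 0.775 in B6 and summit coverages there of 237 (207.8 to 269.2) and 295 (262.3 to 330.7), whose intervals overlap. Farther out, from 2381 to 716 bp before the start, the lists were alike at 2.81, 2.79, 2.91 and 3.03. The distal region that ranked highest in both B6 lists, 2762 bp wide inside an intron from 18564 to 21325 bp after the start (chr15:78277739-78280500), leaned to males in both strains: 3.39 against 2.92 in B6 and 2.81 against 2.66 in CAST. Its ratios were 1.16 and 1.05, the largest lean in the same direction at Tmprss6 when regions are ranked by the lesser of the 2 strains. A narrow intron region beside it, from 17841 to 18299 bp, was called in both B6 lists at 2.0 and 1.83 and in neither CAST list. In both CAST lists the intron region from 11039 to 12189 bp ranked highest instead, at 2.76, 2.82, 3.32 and 3.10.

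Hfe (ENSMUSG00000006611.8, chr13:23793903-23802723, minus strand), which encodes the haemochromatosis protein, carried a single wide promoter region of 3093 bp over its start at chr13:23800340-23803432. Fold enrichment was 4.04 in males and 4.50 in females of B6, and 4.40 in males and 5.56 in females of CAST, higher in females of both strains, with male to female ratios of 0.897 and 0.791. Summit coverage went the other way or was level, at 355 (319.0 to 393.9), 343 (307.7 to 381.3), 350 (314.3 to 388.7) and 310 (276.4 to 346.5), while the local background it is divided by was 87.1, 75.4, 78.8 and 54.9. The female lean at Hfe was thus present in the fold enrichment and absent from the summit coverage. Hfe lies among histone genes, and 2 CAST-only regions lay near the start of Hist1h4c, from 11398 to 12226 and from 12656 to 13480 bp past the Hfe start. They had fold enrichments of 3.48 and 2.96 in CAST males and 3.53 and 3.41 in CAST females, at percentiles from 68.1 to 76.6, the highest of the CAST-only calls of the 10 windows. Summit coverage over the list background ranked them otherwise. It was 8.23 and 6.99 in males and 7.54 and 7.30 in females, against 7.83 and 8.01 at the CAST-only region upstream of Fth1. A B6-only region lay nearer to Hfe, from 9003 to 9329 bp, at 1.88 in males and 2.05 in females.

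Tfr2, annotated as Trfr2 (ENSMUSG00000029716.8, chr5:138011079-138028709, plus strand), had a promoter region of 2423 bp at chr5:138010536-138012958, which also overlaps the neighbouring gene Actl6b, with fold enrichments of 4.53, 4.39, 4.19 and 4.0 in the order B6 male, B6 female, CAST male and CAST female. The 4 lists ranked it between percentile 89.2 and 91.8. Distal to it the strains differed. The intergenic region from 22599 to 23707 bp after the start (chr5:138033678-138034786) had a fold enrichment of 2.51 in B6 males and 2.47 in B6 females, against 4.25 and 4.30 in the males and females of CAST. The sexes lay close together within either strain, with male to female ratios of 1.02 and 0.987, while the CAST to B6 ratio was 1.69 in males and 1.74 in females. Summit coverage was 69 (53.7 to 87.3) and 80 (63.4 to 99.6) in the B6 lists and 124 (103.1 to 147.8) and 126 (105.0 to 150) in the CAST lists, and the intervals of the strains do not meet. Of its words of 50 bases, 99.8% occur once in mm9. A second, weak strain difference lay inside an intron from 16508 to 16810 bp, called in both CAST lists at 2.04 and 1.91 and in neither B6 list.

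Hfe2 (ENSMUSG00000038403.9, chr3:96329108-96333139, plus strand), which encodes hemojuvelin, was the plainest locus. A region of 3446 bp over its start (chr3:96328208-96331653) was enriched 2.85-fold in males and 2.70 in females of B6, and 2.81 in males and 3.19 in females of CAST. Covered promoter bases, from 2938 to 3432 bp, stood between percentile 87.8 and 91.7 of all genes with a promoter peak. The only other call in its window was a B6 female peak of 345 bp over its coding exon, at 1.5.

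Bmp6 (ENSMUSG00000039004.4, chr13:38436995-38592183, plus strand), the ligand of the pathway, had a weak promoter by comparison. The region over its start (chr13:38436985-38438489) was enriched 2.0-fold in males and 2.63 in females of B6, and 2.71 in males and 2.51 in females of CAST. In the B6 male list it was broken into peaks of 273 and 297 bp, against 1087 bp in B6 females, 1454 bp in CAST males and 1286 bp in CAST females. Summit coverage was 55 (41.4 to 71.6) in males and 70 (54.6 to 88.4) in females of B6, and 92 (74.2 to 112.8) in males and 75 (59.0 to 94.0) in females of CAST, and only the male lists of the strains have intervals that do not meet. Most of its 18 regions lay inside introns of this long gene, 9 of them called in a single list. An intron region from 6139 to 7590 bp after the start was close in the 4 lists, at 3.30, 3.45, 3.15 and 3.15, and the region that ranked highest in every list but that of CAST females lay near the 3′ end from 151912 to 152945 bp, at 3.66, 3.91, 3.65 and 3.52. The neighbouring region from 151059 to 151666 bp leaned to males in both strains, at 2.96 against 2.49 in B6 and 2.77 against 2.15 in CAST. A region from 8009 to 8839 bp was called in both B6 lists at 2.05 and 1.99 and in neither CAST list.

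Slc40a1 (ENSMUSG00000025993.4, chr1:45964915-45982439, minus strand), the ferroportin gene, had a promoter region that leaned to males in both strains, within the fold used here. This region of 2985 bp at chr1:45980489-45983473 had a fold enrichment of 4.24 in B6 males against 3.88 in B6 females and of 4.57 in CAST males against 3.69 in CAST females, the largest lean in the same direction at Slc40a1 when regions are ranked by the lesser of the 2 strains. Summit coverage over the background of the list was 20.2 (18.2 to 22.3) and 17.4 (15.5 to 19.4) in B6, where the intervals overlap, and 21.6 (19.5 to 23.9) and 16 (14.1 to 18) in CAST, where they do not. Over all regions near genes the same measure had a median male to female ratio of 1.03 in B6 and 1.13 in CAST. Covered bases in the window were 1.31 times as many in males in B6 and 1.22 times in CAST. The B6 ratio rests on peaks outside the gene body, and was 0.981 over the gene body, 0.906 with a window of 5 kb and 1.07 with peaks clipped to the window.

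Upstream of Slc40a1 lay the only region of the 77 that was called in the same single sex in both strains. It was male-only, from 9605 to 8938 bp before the start (chr1:45991377-45992044), and 0 regions were female-only in both. Over all regions near genes, 2.29% were male-only and 1.22% female-only in both strains, so that 1 and 0 of 77 are not unusual numbers. It was weak in both lists: 668 bp at a fold enrichment of 2.16 in B6 males and 227 bp at 2.06 in CAST males, at percentiles 15.9 and 9.26, with summit coverages of 44 (32 to 59.1) and 40 (28.6 to 54.5). The count of such regions fell to 0 with a stricter q-value, with lists of equal length, when peaks within 500 bp of each other were merged and with a window of 5 kb. The stretch shared by both male lists, 227 bases at chr1:45991676-45991902, is shown in the direction of the gene and holds none of the letters searched.
Slc40a1, male-only element: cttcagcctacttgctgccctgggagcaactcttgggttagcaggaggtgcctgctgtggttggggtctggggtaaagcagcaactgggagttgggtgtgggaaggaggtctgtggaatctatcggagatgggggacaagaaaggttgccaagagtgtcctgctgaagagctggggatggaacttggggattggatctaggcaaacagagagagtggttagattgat

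The region next to it, from 10791 to 9734 bp before the start, was called in B6 males at 3.06, in CAST males at 3.05 and in CAST females at 2.76, and not in B6 females. Downstream of the gene, the distal region that ranked highest in every list but that of CAST females, from 19581 to 21761 bp after the start, was enriched 4.08-fold in males and 3.95 in females of B6, and 4.11 in males and 3.23 in females of CAST. The region farther downstream, from 27346 to 28701 bp after the start, went the other way in CAST, at 3.32 in males and 4.21 in females, with summit coverages of 135 (113.2 to 159.8) and 175 (150 to 202.9), and stood at 3.37 and 3.42 in B6. A region in an intron from 11290 to 11751 bp was CAST-only, at 2.19 and 1.78.

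**Figure D4:**
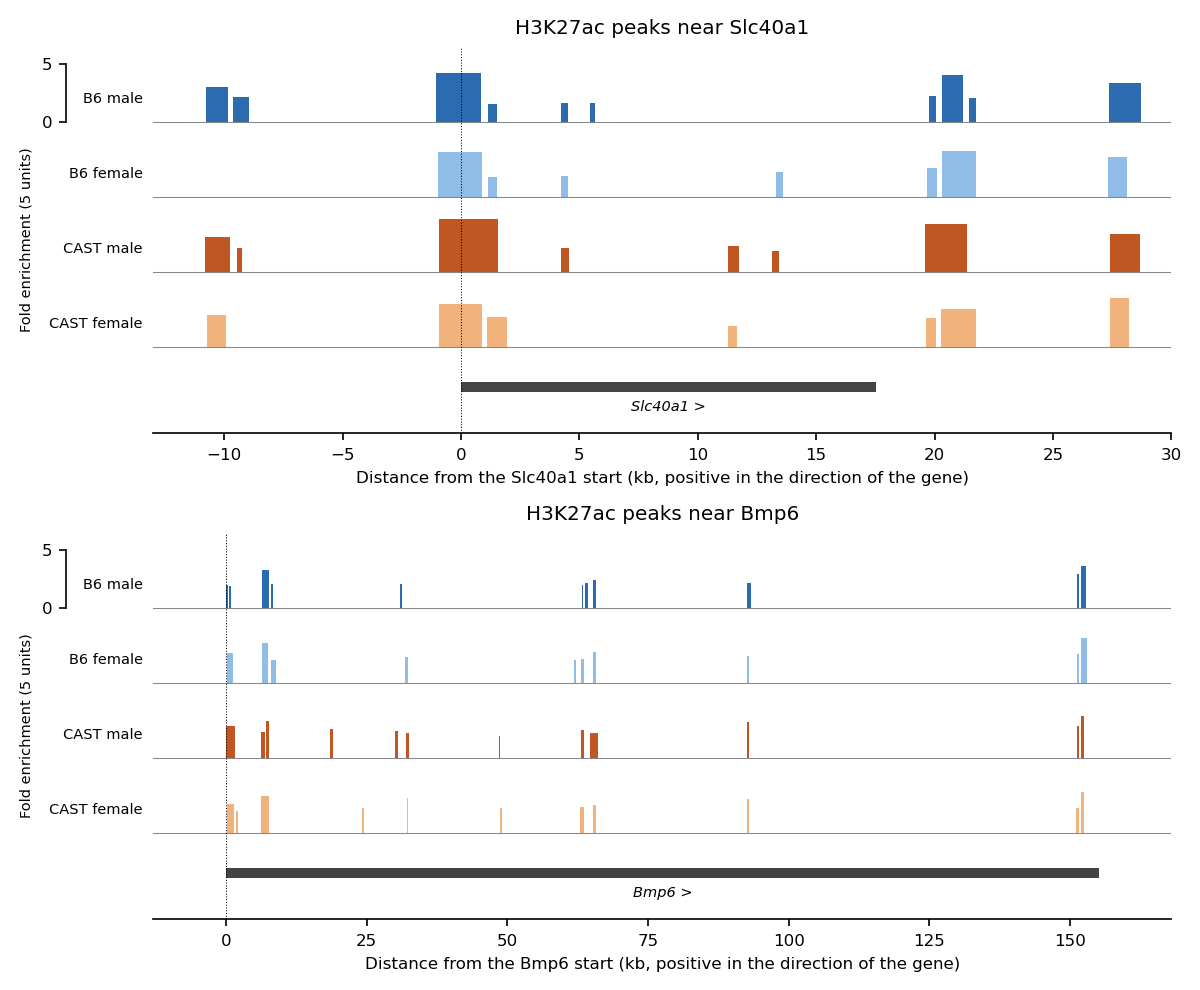
Peaks of the 4 merged lists around Slc40a1 and Bmp6 (x axis, kb from the start of the gene in its own direction), each bar as wide as the peak and as high as its fold enrichment. Of the pair of bars farthest upstream of Slc40a1, both are present in each male list, 1 in CAST females and none in B6 females, and the bars near the 3′ end of Bmp6 recur in every list, with fold enrichments from 3.52 to 3.91 at the last.

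The ferritin genes were alike in the 4 lists at their starts and differed in weak calls farther out, with 4 of 8 regions of Fth1 and 4 of 7 of Ftl1 called in every list. At Fth1 (ENSMUSG00000024661.6, chr19:10057193-10059582, plus strand) the region over the start (chr19:10056200-10058491) was enriched 3.01-fold in males and 3.30 in females of B6, and 3.40 in males and 3.17 in females of CAST. Its highest ranked distal region, from 6179 to 5402 bp upstream, stood at 3.07, 2.73, 2.92 and 2.98. A narrow region from 7326 to 7037 bp upstream was CAST-only, at 1.58 in males and 1.72 in females. Downstream, a region from 6611 to 6914 bp was called in CAST males alone at 2.14, and regions from 7051 to 7375 and from 7746 to 8059 bp in B6 females alone at 2.16 and 2.24. At Ftl1 (ENSMUSG00000050708.8, chr7:52713314-52715254, minus strand) the promoter region ended 58 bp short of the start, overlapped the neighbouring gene Bax and had fold enrichments of 3.06, 3.11, 3.09 and 3.01. A region at the 3′ end of Ftl1, from 1934 to 2263 bp after the start, was B6-only at 1.49 and 1.65. Farther out, near starts of other genes, a region from 8068 to 8311 bp was called in B6 females alone at 2.04, and a region from 11517 to 12454 bp at 2.80, 2.49 and 2.06 in every list but that of CAST females. Over the Ftl1 gene body 70.9% of words of 50 bases were unique in mm9.

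The local background behind these values differed between genes. At the summit of the start regions it was between 95.4 and 132 at Fth1, Ftl1 and Tmprss6, between 54.9 and 102 at Tfr2, Hfe, Hfe2 and Slc40a1 and between 26 and 33.3 at Bmp6, against a list background of 16.9 to 18.7. A high local background lowers the fold enrichment, so fold enrichments compare lists at 1 gene and not the genes with each other. By summit coverage over the list background, the highest peak near the start stood between 15.8 and 23 at Slc40a1, Fth1, Ftl1, Hfe and Tmprss6, between 13.9 and 17.6 at Tfr2 and Hfe2, between 5.29 and 7.61 at Hamp and between 3.0 and 5.18 at Bmp6, and was 2.79 at the sole Hamp2 peak. Hamp and Bmp6, hormone and ligand, thus carried lower peaks than the receptors, the exporter and ferritin in every list, with intervals that do not meet.

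**Figure D5:**
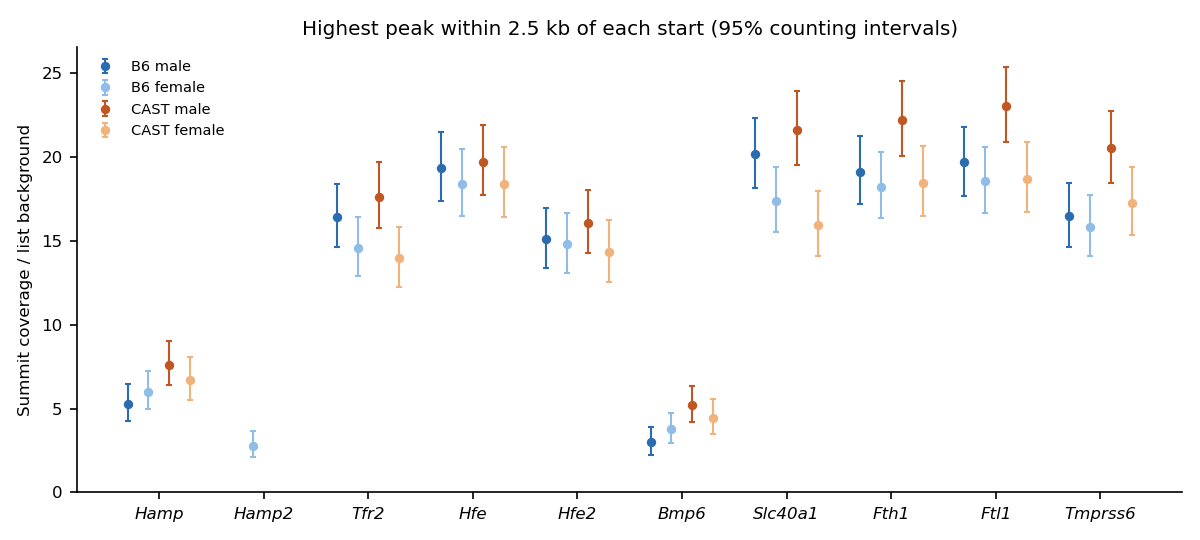
Summit coverage over the background of the list (y axis) for the highest peak within 2.5 kb of each start (x axis), in the 4 merged lists, with exact 95% Poisson intervals of the coverage as bars. At Hamp and Tmprss6 the highest peak is not the same region in every list, and at Hamp it lies over Usf2 in the B6 lists. Hamp, Hamp2 and Bmp6 reach at most 7.61, the other 7 genes lie between 13.9 and 23, and the CAST male list is highest at 9 of the 10 genes, on a measure whose median ratio over all regions near genes is 1.13 for CAST males over CAST females and 1.1 for CAST males over B6 males.

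Another 39 genes of iron handling were looked up in the same way, all of them matched in the annotation. A promoter peak was called in all 4 lists at 35 of them, beside the 57.6% of all protein-coding genes given above. It was called in 3 lists at Pcbp1 and Lcn2 and in no list at Heph and Hephl1. Heph, a ferroxidase of the intestine, and its paralogue Hephl1 lacked promoter peaks, and the Heph window had no peak at all. At Pcbp1, an iron chaperone, the highest promoter peak was 1.52 in B6 males, 5.01 in CAST males and 5.12 in CAST females, with no call in B6 females. At Lcn2, a siderophore-binding protein of the acute phase, it was 3.5 in B6 males, 4.26 in B6 females and 2.51 in CAST females, with no call in CAST males. Covered bases were 1.5-fold apart between the sexes in B6 at 0 of 38 genes and in CAST at 2 of 38, against the 9.42% and 11.1% given above for all genes. Both were higher in CAST males and are named after their values were seen: Acvr1, a BMP type I receptor, at 1.54, and Slc39a14, an importer of iron not bound to transferrin, at 1.53. The median ratio over the 38 genes was 1.03 in B6 and 1.09 in CAST.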

How the data were processed

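H3K27ac ChIP-seq was made from 20 livers, with 4 inputs. Per the study's methods, the authors aligned paired reads with Bowtie2, B6 to mm9 and CAST to a CAST genome whose coordinates were converted to mm9, kept uniquely mapped reads, called peaks with MACS2 against input and removed blacklisted regions. The deposited lists are named as merged by sex and strain; the methods describe merging the reads of a group for browser views, and no other account of how these lists were merged is given in the sources used here. The deposited lists give each peak's fold enrichment, a ratio of summit coverage to local background, and the −log10 p and −log10 q that the authors' caller wrote. Read totals of single livers, which the study tabulates, were not used here, since the lists merge the livers. Groups follow titles, since the strain field names every female CAST and every male B6.

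Here, peaks were assigned to genes of GENCODE annotation on NCBIM37 (mm9) with Python 3.11.15, numpy 2.4.6, pandas 2.3.3, scipy 1.17.1 and matplotlib 3.10.9. A promoter peak lies within 2.5 kb of a start. Summit coverage was solved from fold enrichment and p, an addition made after seeing the data, and came out whole within 0.05 for 99.95% to 99.98% of peaks; intervals are exact Poisson and cover counting error only. The solving of summit coverage, the merging of regions, the count of unique words, the motif search and the alignment were tested on simulated data. The regions named are, for each gene, that over the start, the distal region with the highest percentile in any list, those called in both sexes of a single strain or in a single sex of both strains, and that with the largest lean in the same direction in both strains, by the lesser of the 2; other regions named, those past 1.5-fold included, were chosen after their values were seen. Alternatives were the window, promoter limit, q-value, peak merging, overlap and equal list lengths. The members and lists were chosen with earlier results of these data known. With 1 merged list per group, nothing was tested.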

Additional observations from a re-analysis of the deposited data

Results flagged for a closer look

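A region over a coding exon of Slc40a1, from 13120 to 13616 bp after the start (chr1:45968823-45969319), had opposite single-sex calls in the strains. In B6 it was called in the female list only, at a fold enrichment of 2.19 with a summit coverage of 70 (54.6 to 88.4), and in CAST in the male list only, at 1.81 with a summit coverage of 61 (46.7 to 78.4). The difference between the strains was not tested, since each group is 1 merged list.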

How the results depend on the processing

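Counts of regions followed the window and the rule for a shared peak. The windows held 77 regions, 41 over the gene bodies alone and 126 with 25 kb on each side. B6 male-only regions numbered 5, and 3 over gene bodies, 3 with 5 kb, 10 with 25 kb, 2 at −log10 q of at least 5, 2 when peaks within 500 bp of each other were merged and 12 where sharing needed an overlap of 50% of both peaks. B6 female-only regions numbered 10, and 5 over gene bodies, 20 with 25 kb and 17 with the 50% overlap. CAST male-only regions numbered 9, and 5 over gene bodies, 16 with 25 kb, 5 with lists of equal length and 16 with the 50% overlap. CAST female-only regions numbered 3, and 9 with 25 kb, 1 with merging and 10 with the 50% overlap. B6-only regions numbered 4 and 0 with merging, and CAST-only regions 6 and 3 over gene bodies. Male-only regions in both strains numbered 1, and 0 over gene bodies, with 5 kb, at −log10 q of at least 5, with equal lengths and with merging. Female-only regions in both strains numbered 0, and 1 with 25 kb and 1 with equal lengths. The B6 male to female ratio of distal bases was 0.976, and 1.01 with 25 kb. For Fth1 the B6 ratio of covered bases was 0.908, and reversed to 1.74 when only peaks touching the gene body were counted, each in full. The B6 male start peak of 2070 bp was counted whole. In B6 females the start region is split into peaks of 743 and 1192 bp, and only the latter touches the gene. Beyond the construction of each alternative, the cause was not tested. The Hamp upstream element had a B6 male to female ratio from 0.591 to 0.604 under the alternatives run for it. These were other measures of the same single peak in each list, and the width-weighted mean equals the main value by construction. Window, q-value and list length were not varied for this ratio, so the narrow range does not show that the difference is stable. No paired analysis was possible because each group is a single merged list. Merging hides the spread between livers, and narrow peaks near the calling threshold limit the single-list calls.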
